A study of Mus musculus with 8 samples.

Results

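The nuclear genes for subunits of the oxidative phosphorylation machinery were followed through embryonic mouse epidermis with and without Nir, the gene now called Noc2l. Members were the genes whose symbols begin with Ndufa, Ndufb, Ndufc, Ndufs, Ndufv, Sdha, Sdhb, Sdhc, Sdhd, Uqcr, Cox4i, Cox5, Cox6, Cox7, Cox8 or Atp5, without the Ndufaf and Sdhaf assembly factors and without pseudogenes. This gave 85 of the 23146 genes counted: 38 in complex I, 4 in complex II, 8 in complex III, 18 in complex IV and 17 in complex V. Filtering on low counts kept 83 of them for testing. The rule picks members by name and not by a measured value, but the module itself was taken up with earlier results of these data known.

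Oxidative phosphorylation turns the energy of NADH and succinate into ATP in the inner mitochondrial membrane. Complexes I and II pass electrons to coenzyme Q, complex III passes them on to cytochrome c, and complex IV (cytochrome c oxidase) hands them to oxygen, while complex V, the ATP synthase, uses the resulting proton gradient. Most subunits are made in every cell, but several complex IV subunits exist as a common form and as a form typical of muscle, testis or another tissue. The subunits encoded by mitochondrial DNA were not analysed here.

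RNA was sequenced in 8 libraries, 2 from each of 4 groups. Control epidermis came from mice with floxed Nir alleles and knockout epidermis from floxed mice crossed to Krt14-Cre, at E15.5 and E17.5 (E, embryonic day). The Krt14 promoter drives Cre in basal keratinocytes, the cells that build the epidermis, so other cell types in the preparation are not expected to lose the gene. Whether control embryos carried Cre, and which exons were floxed, is not given in the sources used here. The epidermis was lifted from the dermis before extraction, and the files give reads per transcript.

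Each library held between 25226357 and 28895657 counts on named genes. Noc2l stood at 107 and 97.4 CPM (counts scaled to library size) in control and 95.6 and 91.6 CPM in knockout epidermis at E15.5, and at 105 and 121 CPM against 85.4 and 86.9 CPM at E17.5. It fell at E17.5 (log2 fold change −0.39 ± 0.10, SE; adjusted p = 0.0062, edgeR) and did not pass the test at E15.5 (−0.12 ± 0.10, adjusted p = 0.33). Counts over the whole transcript need not follow a deletion of some exons. The make-up of the samples differed much more: the summed level of 5 suprabasal keratinocyte markers was 76704 to 78871 CPM in control and 3038 to 3360 CPM in knockout libraries at E15.5, and 38212 to 50523 CPM against 613 to 958 CPM at E17.5. That of 7 basal keratinocyte markers was 6260 to 6740 CPM in control and 1743 to 1744 CPM in knockout libraries at E15.5, and 6632 to 6766 CPM against 1118 to 1161 CPM at E17.5. Markers of dermal fibroblasts (29863 to 31822 against 74093 to 91442 CPM, then 26013 to 30108 against 93618 to 99365 CPM) and erythroid cells (3084 to 4208 against 17833 to 31178 CPM, then 1172 to 1280 against 13252 to 14926 CPM) moved the other way, as did myeloid markers (246 to 264 against 576 to 582 CPM, then 258 to 279 against 957 to 1096 CPM), and the control libraries held all 3. In such bulk samples, fewer cells of a type and less RNA per cell cannot be told apart.

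Subunit transcripts were abundant in every group. The 85 members together took 9379 and 9237 CPM in the control libraries and 8529 and 8295 CPM in the knockout libraries at E15.5. At E17.5 they took 9460 and 10288 CPM against 9983 and 9750 CPM. The knockout sum was therefore below both controls at E15.5 and inside their range at E17.5. On library totals alone, a scaling of the sums added after seeing the data, both knockout sums lay below both controls at E17.5 too (10349 and 11538 against 9465 and 9412 CPM).

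Levels per transcript length (RPKM, reads scaled to transcript length and sequencing depth; mean of 8 libraries) ordered the complexes with the ATP synthase on top. Complex V had a median of 149 RPKM, led by Atp5b, the catalytic beta subunit, at 636 RPKM. Complexes IV and III had medians of 87.2 and 85.2 RPKM and were led by Cox6a1 at 475 RPKM and by Uqcr11, a small complex III subunit, at 281 RPKM. Complexes I and II had medians of 67.3 and 62.7 RPKM, led by Ndufa4 at 233 RPKM (a complex I gene by its symbol, since placed in complex IV) and by Sdhb, the iron-sulfur subunit of succinate dehydrogenase, at 98.0 RPKM. Within a complex the spread was wide: complex I reached down to 1.89 RPKM for Ndufab1, the mitochondrial acyl carrier protein, and complex V to 8.35 RPKM for Atp5g2. Lowest of all, Cox8c, a testis form, had no count in any library, and Cox7b2, another testis form, was seen in 1 library at 0.183 CPM.

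Members differed in the sequence ahead of their start sites. A RefSeq promoter window (GRCm38.p6, 250 bases before to 50 bases after the start) was found for 69 of the 85 members. The letters GCGCA, any base, then GCGC, the site of nuclear respiratory factor 1 (NRF1), a known activator of respiratory chain genes, stood on either strand in 17 of these 69 windows (24.6%), in 5.19% of all 27025 windows and in 9.63% of the 12752 windows of tested genes. The YY1 letters AAGATGGC stood in 10 windows (14.5%; 3.19% of all, 4.48% of tested genes). The ESRRA letters TNAAGGTCA stood in 3 (4.35%; 1.43% and 0.933%), the ETS letters CCGGAAGT in 5 (7.25%; 4.31% and 7.51%) and the short HIF core ACGTG in 17 (24.6%; 21.8% and 27.5%). A match describes these letters in these windows and not binding.

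The 250 bases before the start are shown for 4 members, with matches to that NRF1 pattern in capitals. Cox6a1 (chr5:115348959-115349208, minus strand) has the highest level per length of the members with a match, Sdha (chr13:74350241-74350490, minus strand) rose in knockout epidermis and has 3 matches, and Cox8b (chr7:140900447-140900696, minus strand) and Cox7a1 (chr7:30183921-30184170, plus strand) are muscle-type forms that rose and have none in the window. They were chosen after the matches and fold changes were known.
Cox6a1: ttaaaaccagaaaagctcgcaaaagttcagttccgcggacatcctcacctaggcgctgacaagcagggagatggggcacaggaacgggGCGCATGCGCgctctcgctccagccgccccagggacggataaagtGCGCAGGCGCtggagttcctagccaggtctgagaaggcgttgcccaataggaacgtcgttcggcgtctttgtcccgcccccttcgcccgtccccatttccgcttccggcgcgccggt
Sdha: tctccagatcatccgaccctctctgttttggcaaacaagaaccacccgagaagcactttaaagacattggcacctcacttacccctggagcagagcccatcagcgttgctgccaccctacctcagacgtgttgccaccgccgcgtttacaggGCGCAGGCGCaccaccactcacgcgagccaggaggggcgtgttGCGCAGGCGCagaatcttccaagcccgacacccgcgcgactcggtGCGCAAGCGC
Cox8b: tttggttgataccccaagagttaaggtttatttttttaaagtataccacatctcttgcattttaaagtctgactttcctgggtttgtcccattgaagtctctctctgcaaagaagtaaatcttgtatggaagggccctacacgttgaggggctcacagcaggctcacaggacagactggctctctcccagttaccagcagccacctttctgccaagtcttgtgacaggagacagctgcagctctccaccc
Cox7a1: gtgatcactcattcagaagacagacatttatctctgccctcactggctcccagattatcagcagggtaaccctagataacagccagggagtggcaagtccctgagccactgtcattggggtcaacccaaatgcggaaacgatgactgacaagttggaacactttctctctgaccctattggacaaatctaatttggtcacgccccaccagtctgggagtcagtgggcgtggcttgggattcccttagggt

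The first question was what loss of Nir did to the module at E15.5. A few members changed: 4 rose and 8 fell, 12 of 83 in all (14.5%), in a comparison in which 45.5% of all 16342 genes tested were called, 23.2% risen and 22.3% fallen. Ndufa4l2 fell most, and the muscle-type subunit Cox6a2 rose most. The median member lay at −0.11 on the log2 scale, with quartiles at −0.25 and 0.02, while the median of all genes lay at 0.00 with quartiles at −0.37 and 0.49. Of the members, 59 of 83 (71.1%) had a negative value against 50.3% of all genes, and 1 was called with at least a 2-fold change (1.2%; 18.2% of all genes). For 53 members (63.9%) the 95% interval of the fold change lay within 1.5-fold in either direction, and for 76 (91.6%) within 2-fold; over all genes these shares were 31.6% and 57.5%. Subunit genes are short (median transcript 727 bases, all tested genes 2840 bases), and of the 1310 tested genes shorter than a kilobase 33.1% were called, with a median of −0.06. Leaving out any 1 of the 4 E15.5 libraries, or either E17.5 knockout replicate, left 2 risen. Without control replicate 1 the count of fallen members was 3, without knockout replicate 2 it was 5 and without knockout replicate 1 it was 13.

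At E17.5, 6 members rose and 8 fell, 14 of 83 (16.9%), where 53.5% of all genes were called, 26.7% in each direction. Cox8b, Cox6a2 and Cox7a1, all muscle-type subunits of complex IV, rose most, and Cox7c, Ndufa4l2 and Ndufb4 fell most. The median member was at −0.06 and the median gene at −0.02, and 3 members (3.61%; 24.3% of all genes) were called with at least a 2-fold change. The 95% interval lay within 1.5-fold for 62 members (74.7%; 27.9% of all genes) and within 2-fold for 74 (89.2%; 53.7%). Among tested genes shorter than a kilobase, 41.7% were called. The balance of these calls depended on the scaling. With library totals alone 3 members rose and 26 fell, the median gene moved to −0.23 and the median member to −0.27. With offsets for transcript length 8 rose and 5 fell. The 53.5% holds for the main fit, and the share of all genes called in these 2 fits is not given here. Without knockout replicate 1, 3 rose; without knockout replicate 2, 4 fell, and without control replicate 2, 5 fell.

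The stages shared 5 called members (41.7% of the E15.5 calls and 35.7% of the E17.5 calls): Cox6a2, Cox7a1 and Ndufa13 rose at both, and Atp5g1 and Ndufa4l2 fell at both. These 5 were 6.02% of the tested members, while 37.7% of all genes were called at both stages. In all, 21 members (25.3%; 61.2% of all genes) were called at either stage and 62 of the 83 tested (74.7%; 38.8% of all genes) at neither.

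**Figure D1:**
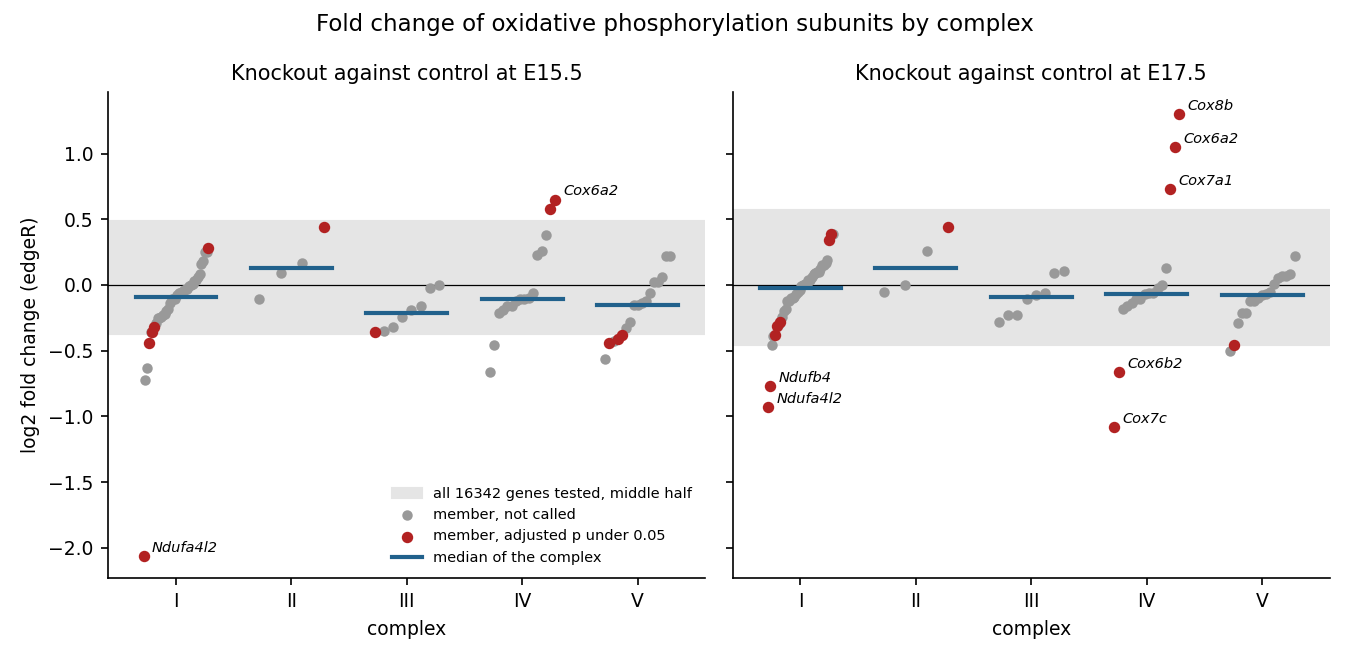
Log2 fold change of each tested member (1 point per gene) in knockout against control epidermis at E15.5 and E17.5, by complex, with the median of the complex as a bar and the range between the quartiles of all 16342 genes tested shaded. Red points passed the test; most members lie inside the shaded band, and Ndufa4l2 at −2.06 (E15.5) and Cox8b at 1.30 (E17.5) lie farthest from 0.

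By complex, the medians at E15.5 were −0.09 for complex I (1 risen, 4 fallen of 38), 0.13 for complex II (1 and 0 of 4), −0.21 for complex III (0 and 1 of 8), −0.11 for complex IV (2 and 0 of 16 tested) and −0.15 for complex V (0 and 3 of 17). At E17.5 they were −0.03 (2 risen, 5 fallen), 0.13 (1 and 0), −0.10 (0 and 0), −0.07 (3 and 2) and −0.08 (0 and 1). Complexes were set by gene symbol. The fallen Ndufa4l2 (both stages) and Ndufa4 (E15.5) therefore count in complex I, although Ndufa4 has since been placed in complex IV. With library totals alone the E17.5 medians were −0.24 for complex I, −0.09 for complex II, −0.28 for complex IV and −0.29 for complex V, so that the sign for complex II turned, while relative to the median gene it stayed above.

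Summed levels gave complex II and the other complexes opposite directions at E15.5. Complex I took 2652 and 2752 CPM in control and 2322 and 2363 CPM in knockout libraries at E15.5, and 2625 and 2837 against 2716 and 2603 CPM at E17.5. Much of the E15.5 difference came from Ndufa4l2 and Ndufa4: without them complex I took 2220.4 and 2208 against 2118 and 2162 CPM, and on library totals these groups overlapped (2169.8 and 2128 against 1987 and 2178 CPM). Complex II went the other way, with 407 and 392 against 441 and 439 CPM, then 451 and 493 against 565 and 528 CPM. Its groups did not overlap at either stage. The higher sums lay mainly in Sdha and Sdhd. From control to knockout at E15.5, mean Sdha went from 166 to 186 CPM and mean Sdhd from 55.9 to 75.7 CPM. Sdhb went from 95.4 to 102 CPM and Sdhc from 81.8 to 76.0 CPM. At E17.5 Sdha went from 183 to 249 CPM and Sdhd from 69.6 to 83.3 CPM, but Sdhb from 128 to 123 CPM and Sdhc from 91.5 to 91.3 CPM. Complex III took 870 and 856 against 778 and 704 CPM, then 866 and 984 against 854 and 876 CPM. Complexes IV and V were likewise lower in the knockout pair at E15.5 (1600 and 1607 against 1557 and 1417 CPM; 3850 and 3630 against 3430 and 3372 CPM) and overlapped or lay within the controls at E17.5 (1596 and 1847 against 1765 and 1783 CPM; 3921 and 4127 against 4083 and 3960 CPM). The E17.5 pattern turned with the scaling. On library totals alone complex II overlapped at E17.5 (493 and 553 against 536 and 509.7 CPM), and the knockout libraries lay below both controls in complex I (2872 and 3182 against 2575 and 2513 CPM), III (947 and 1104 against 809 and 845 CPM), IV (1746 and 2072 against 1673 and 1721 CPM) and V (4289.8 and 4629 against 3871 and 3823 CPM). At E15.5 the groups were apart in the same directions under both scalings. With 2 libraries against 2, an exact permutation test cannot go below p = 0.333, so groups being apart carries little weight. The share of all genes with their groups apart is not given here.

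**Figure D2:**
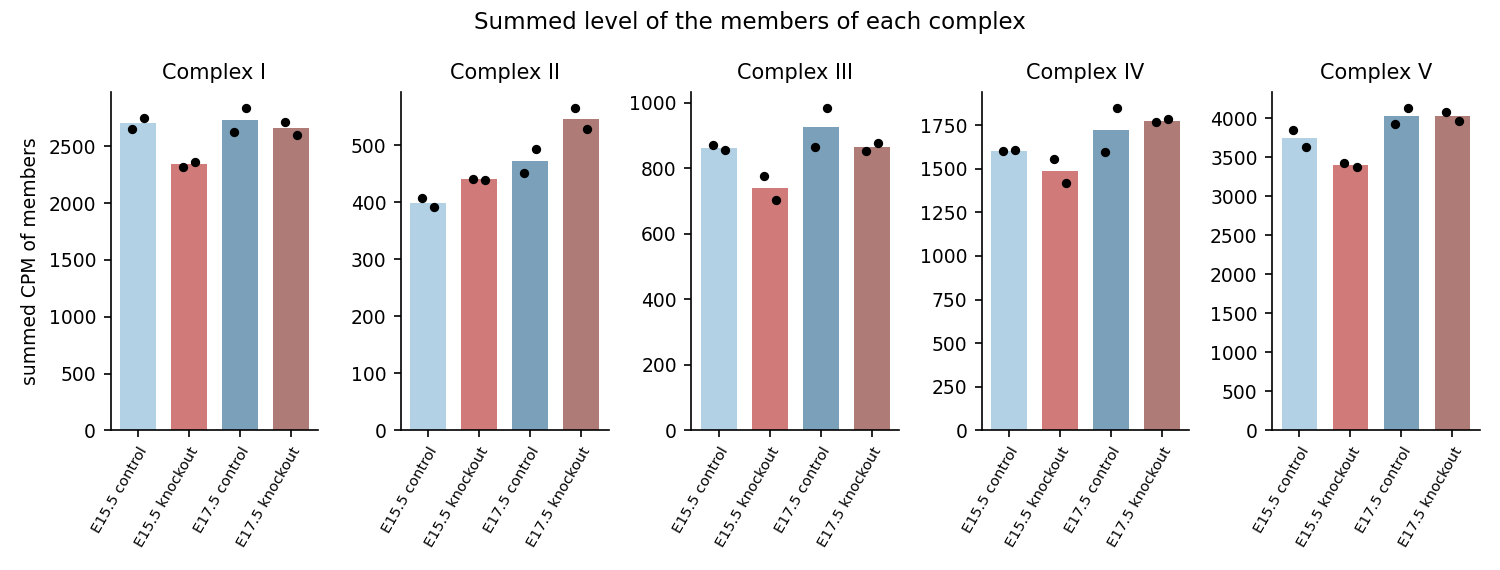
Summed level of the members of each complex (CPM; bars are the mean of 2 libraries, points the libraries, and each panel has its own axis from 0). At E15.5 the knockout libraries lie below the controls in complexes I, III, IV and V and above them in complex II. At E17.5, on this TMM scale, complex II alone has its groups apart, with 451 and 493 against 565 and 528 CPM. On library totals complex II overlaps at E17.5 and the other 4 complexes are apart. With 2 libraries against 2, groups being apart carries little weight.

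Complex IV held the largest rises, in its muscle-type forms. Cox6a2, the heart and skeletal muscle form of subunit 6a (chr7:128205435-128206366 in the RefSeq table of GRCm38.p6), was at 111 and 99.1 CPM in control and 172 and 159 CPM in knockout libraries at E15.5. At E17.5 it was at 132 and 101 against 255 and 225 CPM. Both knockout groups lay above every control library. The rise was 0.65 ± 0.13 (log2, SE; adjusted p = 0.0019) at E15.5 and 1.05 ± 0.13 (adjusted p = 5.1e-05) at E17.5, and both calls held in all 17 alternatives tried. Its exons share 70 bases with Itgad on the opposite strand, a gene at 0.323 CPM or less. Its common partner Cox6a1 was at 273 and 293 against 256 and 156 CPM, then 293 and 335 against 257 and 307 CPM, with no call (−0.46 ± 0.19, adjusted p = 0.074; −0.16 ± 0.19, adjusted p = 0.52). Per length, Cox6a2 made up 25.5% and 22.1% of subunit 6a transcripts in control and 36.0% and 46.1% in knockout libraries at E15.5, and 27.4% and 20.2% against 45.5% and 38.1% at E17.5.

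Cox8b, the muscle and brown fat form of subunit 8 (chr7:140898942-140900446), differed mainly in the last group. It stood at 12.1 and 12.4 CPM in control and 15 and 13.7 CPM in knockout libraries at E15.5, then at 11 and 12 against 31.5 and 25.1 CPM at E17.5. It rose at E17.5 (1.30 ± 0.15, adjusted p = 2e-05) and not by the test at E15.5 (0.23 ± 0.15, adjusted p = 0.23), although the groups were apart there too. Cox8a, the common form, stayed between 119 and 169 CPM with values of −0.10 and −0.11 and no call. The Cox8b share of subunit 8 transcripts per length went from 11.8% and 9.77% in E17.5 control to 26.5% and 21.6% in E17.5 knockout libraries.

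Cox7a1, the muscle form of subunit 7a (chr7:30184171-30186030), was scarce. Its level was 3.81 and 3.57 CPM in control and 6.14 and 4.89 CPM in knockout libraries at E15.5, and 5.04 and 5.42 against 9.45 and 7.87 CPM at E17.5. It rose at E17.5 (0.73 ± 0.20, adjusted p = 0.0095; not called without E17.5 control replicate 1 or knockout replicate 1) and, close to the threshold, at E15.5 (0.58 ± 0.21, adjusted p = 0.042), a call lost in 9 of 17 alternatives. The common form Cox7a2 stayed between 87.2 and 106 CPM with a value of −0.06 at both stages.

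Skeletal muscle markers moved with these 3 genes. All 8 markers of that list had higher values in knockout epidermis at both stages, 6 of them called at E15.5 (median 0.66) and 8 at E17.5 (median 1.38). Their summed level was 14149 and 10893 CPM in control and 20294 and 19226 CPM in knockout libraries at E15.5, and 14753 and 13068 against 39708 and 28974 CPM at E17.5. In each of the 4 groups the library with more of these markers also had more Cox6a2. Cox8b had the reverse order in the control groups at E15.5 (12.1 and 12.4 CPM) and E17.5 (11 and 12 CPM). Cox7a1 had it in the E17.5 control group (5.04 and 5.42 CPM). These margins are small, and the order of 2 libraries within a group carries little weight either way. Of 6 brown adipocyte markers 1 rose and 2 fell at E15.5, and 0 rose and 3 fell at E17.5 by edgeR. Their summed level was 32 to 35 against 36 to 38 CPM at E15.5 and 127 to 230 against 62 to 68 CPM at E17.5, and Ucp1, the defining brown fat gene, stayed at or below 1.66 CPM. The part of muscle RNA in the isoform values was not tested.

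**Figure D3:**
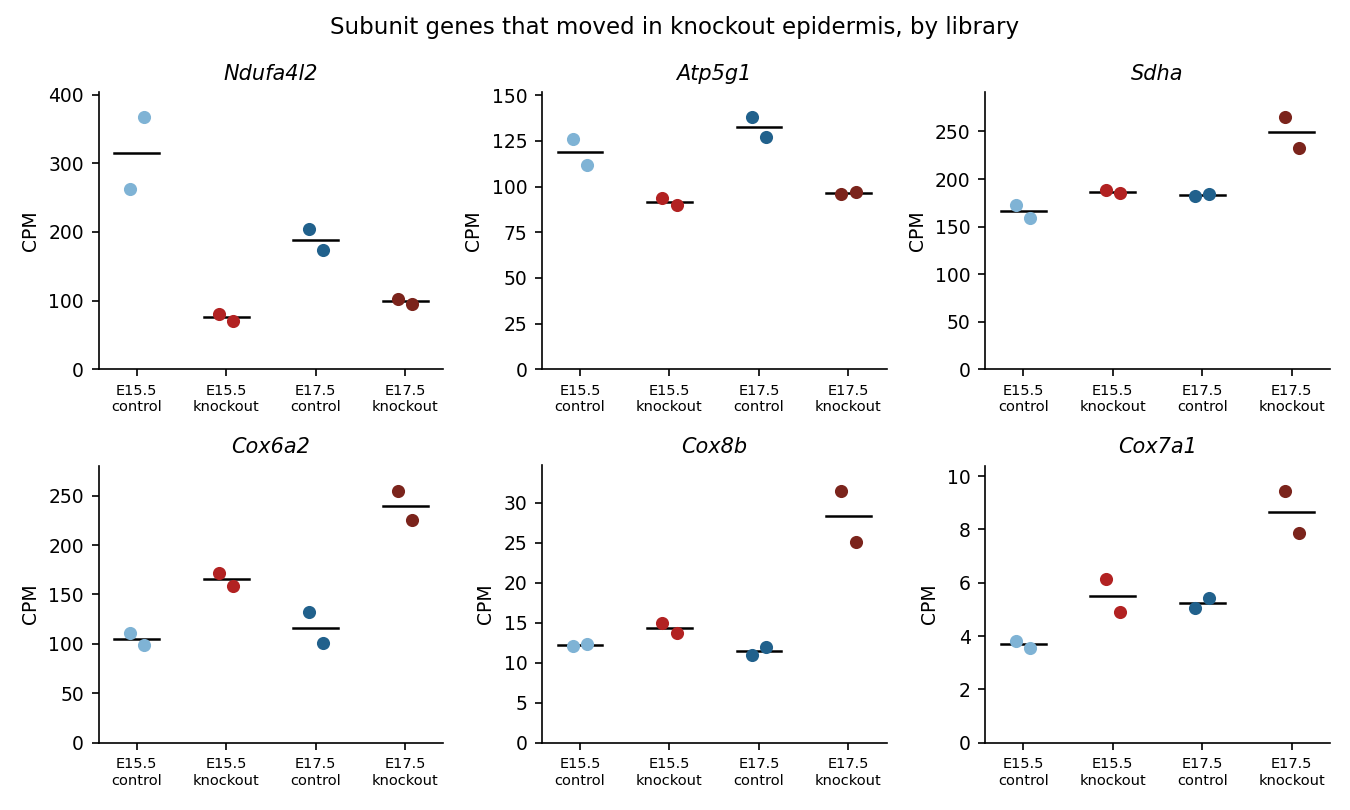
Level (CPM, axes from 0) of 6 members in each of the 8 libraries, with the group mean as a bar. Ndufa4l2 and Atp5g1 are lower in both knockout groups than in every control library, Cox6a2 is higher in both, and Cox8b and Sdha stand highest in the E17.5 knockout libraries.

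The other complex IV isoforms gave no such pattern. Cox4i2, a form of subunit 4 found in lung and linked to low oxygen, was at 8.64 and 7.37 against 9.70 and 11.1 CPM, then 7.61 and 9.21 against 8.07 and 7.22 CPM, with no call (0.38 ± 0.18, adjusted p = 0.11; −0.14 ± 0.18, adjusted p = 0.54). Cox4i1, the common form, lay between 209 and 320.1 CPM and was not called (−0.16 and −0.02). Cox6b2, a testis form, was at 7.62 and 7.76 against 10.2 and 8.27 CPM at E15.5 and at 8.73 and 9.08 against 6.10 and 5.17 CPM at E17.5. It fell at E17.5 (−0.66 ± 0.18, adjusted p = 0.0093; not called without E17.5 knockout replicate 2) with a value of 0.26 ± 0.18 and no call at E15.5. Its common partner Cox6b1 (195 to 238 CPM; −0.11 and −0.07) and Cox7b (104 to 131 CPM; −0.21 and −0.11) were not called. Cox7c, a small subunit, fell at E17.5 from 10.3 and 7.45 to 5.48 and 2.91 CPM (−1.08 ± 0.29, adjusted p = 0.0086; not called without E17.5 control replicate 1 or knockout replicate 2), but 53.0% of its 50-base windows occur in other genes, so part of its reads cannot be assigned with certainty.

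Ndufa4l2 had the largest change of any member. It encodes a relative of Ndufa4 that hypoxia-inducible factor induces in cultured cells, and Ndufa4 itself, despite its name, works in complex IV. Ndufa4l2 (chr10:127509274-127517154) was at 262 and 367 CPM in control and 80.3 and 70.7 CPM in knockout libraries at E15.5, and at 204 and 173 against 103 and 94.5 CPM at E17.5. Every knockout library lay below every control library. The fall was −2.06 ± 0.16 (adjusted p = 1.6e-06) at E15.5 and −0.93 ± 0.15 (adjusted p = 0.00036) at E17.5, and both calls held in all 17 alternatives. Its exons overlap Shmt2, a serine-glycine enzyme gene on the opposite strand, by 32 bases; Shmt2 fell at both stages too (−0.31 ± 0.10, adjusted p = 0.024; −0.36 ± 0.10, adjusted p = 0.0092).

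Ndufa4 fell at E15.5. Its level was 169 and 177 CPM in control and 125 and 131 CPM in knockout libraries at E15.5 (−0.44 ± 0.10, adjusted p = 0.0035, held in all 17 alternatives), and 142 and 149 against 115 and 131 CPM at E17.5 (−0.24 ± 0.10, adjusted p = 0.056). Per length, Ndufa4l2 made up 50.3% and 57.5% of the pair's transcripts in E15.5 control and 29.6% and 26.1% in E15.5 knockout libraries, and 48.4% and 43.1% against 37.0% and 32.1% at E17.5. Pericytes also make Ndufa4l2, and 6 of 7 endothelial and pericyte markers rose at each stage. Their summed level was 584 to 603 against 993 to 1023 CPM at E15.5 and 552 to 574 against 1024 to 1031 CPM at E17.5. The list mixes endothelial and pericyte genes and does not measure pericytes alone. The part of pericytes in the Ndufa4l2 values was not tested.

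The catalytic core of complex I held 1 call. Its nuclear genes include Ndufs1, Ndufs7, Ndufs8, Ndufv1 and Ndufv2, whose flavin and iron-sulfur groups carry electrons from NADH to coenzyme Q, and Ndufs3, a core subunit without such a group. Of these, Ndufs3 was called at E15.5, with 42.2 and 42.9 CPM in control and 37.3 and 28.9 CPM in knockout libraries (−0.36 ± 0.13, adjusted p = 0.035), a call lost in 3 of 17 alternatives. At E17.5 it stood at 42.0 and 40.5 against 42.2 and 44.0 CPM (0.06 ± 0.13, adjusted p = 0.69). Ndufs3 shares 39.7% of its windows with 4 other genes, 2 of them pseudogenes, and 88 exon bases with Kbtbd4 on the opposite strand. Part of its reads therefore cannot be assigned with certainty. The other core genes named here ranged from −0.23 (Ndufs8) to −0.04 (Ndufs1) at E15.5, and at E17.5 the named core genes ranged from −0.18 (Ndufs8) to 0.15 (Ndufs7), without a call.

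Among accessory subunits of complex I the calls were small and went both ways. Ndufa13, also known as Grim19, rose at both stages, from 75.3 and 83.3 to 96.7 and 95.7 CPM at E15.5 (0.28 ± 0.10, adjusted p = 0.037) and from 80.6 and 89.7 to 109 and 114 CPM at E17.5 (0.39 ± 0.10, adjusted p = 0.0055). Its groups did not overlap, but it shares 375 exon bases with Tssk6 on the opposite strand and 28.5% of its windows with other genes, and the E15.5 call was lost in 5 of 17 alternatives. Ndufa10 fell at E15.5, from 90.2 and 86.2 to 69.9 and 71.1 CPM (−0.32 ± 0.09, adjusted p = 0.014, lost in 3 of 17 alternatives), and stood at 87.1 and 92.2 against 90.5 and 84.4 CPM at E17.5. Ndufb7 was at 68.4 and 59.5 against 70.2 and 60 CPM at E15.5 (0.03 ± 0.12, no call) and rose at E17.5 from 67.3 and 77.5 to 96.5 and 86.7 CPM (0.34 ± 0.12, adjusted p = 0.034). With library totals alone the E17.5 rises of Ndufa13 and Ndufb7 were no longer called.

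Another 4 accessory subunits fell at E17.5. Ndufb4 went from 5.58 and 7.22 to 3.65 and 3.84 CPM (−0.77 ± 0.28, adjusted p = 0.037), Ndufb2 from a control mean of 14.4 CPM to 11.3 and 10.8 CPM (−0.38 ± 0.15, adjusted p = 0.045), Ndufa7 from 71.5 and 76.9 to 57.9 and 62.0 CPM (−0.31 ± 0.10, adjusted p = 0.023) and Ndufb5 from 91.6 and 84.9 to 76.0 and 69.5 CPM (−0.28 ± 0.10, adjusted p = 0.035). Their calls were lost in 3, 10, 3 and 4 of 17 alternatives. Ndufb4 and Ndufb2 share 37.0% and 33.5% of their windows with other genes, and Ndufb5 shares 216 exon bases with Mrpl47 on the opposite strand. The remaining complex I members were not called in either knockout comparison.

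Complex II, succinate dehydrogenase, also works in the citric acid cycle. Sdha, its flavin subunit (chr13:74322255-74350240), was at 173 and 159 CPM in control and 188 and 185 CPM in knockout libraries at E15.5 (0.17 ± 0.10, adjusted p = 0.21), and at 182 and 184 against 265 and 233 CPM at E17.5. It rose at E17.5 (0.44 ± 0.10, adjusted p = 0.0035), a call lost with library totals alone (0.23, adjusted p = 0.086) and without E17.5 knockout replicate 1. Sdhd, a membrane anchor, rose at E15.5 from 60.2 and 51.7 to 66.9 and 84.6 CPM (0.44 ± 0.14, adjusted p = 0.026; 0.33 without E15.5 control replicate 2 and 0.26 without knockout replicate 2, neither called), but not by the test at E17.5, where it went from 63.5 and 75.6 to 89.2 and 77.4 CPM (0.26 ± 0.14, adjusted p = 0.14). Sdhb stood at 91.9 and 98.9 against 106 and 97.4 CPM, then 121 and 134 against 117 and 129 CPM, and Sdhc, the other anchor, at 81.9 and 81.8 against 79.5 and 72.5 CPM, then 84.3 and 98.8 against 93.3 and 89.3 CPM. Neither was called (0.09 and −0.05; −0.11 and 0.00).

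Every member of complex III had a value at or below 0 at E15.5, and 1 was called. Uqcrc1, a core subunit of the matrix side, fell from 234 and 229 to 198 and 163 CPM (−0.36 ± 0.12, adjusted p = 0.027), a call lost in 3 of 17 alternatives. Uqcr11, the most abundant per length, was at 123 and 147 against 132 and 83.8 CPM and then 138 and 144 against 99.3 and 133 CPM, with no call (−0.32 ± 0.19; −0.28 ± 0.19). Uqcrfs1, the Rieske iron-sulfur protein, was at −0.19 and 0.09. At E17.5 the 8 members ranged from −0.28 (Uqcr11) to 0.11 (Uqcrc2), and the smallest adjusted p was 0.19 (edgeR), for Uqcrq.

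In complex V the catalytic subunits were not called. Atp5b was at 1229 and 1125 CPM in control and 1085 and 1084 CPM in knockout libraries at E15.5, and at 1268 and 1282 against 1385 and 1287 CPM at E17.5 (−0.12 ± 0.12, adjusted p = 0.44; 0.07 ± 0.12, adjusted p = 0.65). Atp5a1, the alpha subunit, gave −0.15 ± 0.11 and 0.01 ± 0.11. Their 95% intervals were −0.37 to 0.14 and −0.19 to 0.32 for Atp5b, and −0.39 to 0.09 and −0.24 to 0.25 for Atp5a1. At E15.5 the central stalk subunit Atp5d fell from 408 and 402 to 319 and 277 CPM (−0.44 ± 0.12, adjusted p = 0.01; not called without E15.5 control replicate 1 or knockout replicate 2), and the small membrane subunit Atp5mpl from 36.6 and 48.3 to 33.6 and 30.4 CPM (−0.41 ± 0.15, adjusted p = 0.043), the latter lost in 6 of 17 alternatives. Neither was called at E17.5 (−0.10 and −0.21).

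The rotating c ring of the ATP synthase is built from a single mature protein that 3 genes encode with different import signals. Atp5g1 (chr11:96072793-96075694) was at 126 and 112 CPM in control and 93.5 and 89.9 CPM in knockout libraries at E15.5, and at 138 and 127 against 96.0 and 96.8 CPM at E17.5. It fell at both stages (−0.38 ± 0.10, adjusted p = 0.0078; −0.46 ± 0.10, adjusted p = 0.0019). At E15.5 it no longer passed without control replicate 1 or knockout replicate 2, and the E17.5 call held in all 17 alternatives. Atp5g3 was at 168 and 149 against 192 and 179 CPM, then 178 and 239 against 251 and 236 CPM, with 0.22 ± 0.14 at both stages and no call (adjusted p = 0.21 and 0.18). The Atp5g1 share of the pair per length was 47.3% and 47.4% against 36.8% and 37.6% at E15.5, and 48.2% and 39.0% against 31.4% and 33.0% at E17.5. Atp5g2 was at 6.19 and 5.26 against 5.66 and 7.63 CPM, then 5.94 and 6.39 against 6.53 and 5.25 CPM, and was not called (0.22 and −0.07). Of the 50-base windows of Atp5g1, 66% occur in other genes, among them 3 pseudogenes, and of Atp5g2 87.4% in other genes, so reads among these copies cannot be assigned with certainty.

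The design also asks whether the effect of the knockout differed between stages. For 2 of 83 members it did (2.41%; 4.35% of all genes, 1.88% upward and 2.47% downward): Ndufa4l2 fell less at E17.5 than at E15.5 (difference 1.13 ± 0.22, adjusted p = 0.013), and Cox8b rose more (1.07 ± 0.21, adjusted p = 0.014). Neither was called without E15.5 knockout replicate 2 or without E17.5 knockout replicate 1, and 1 of them was called without E15.5 control replicate 2 or E17.5 control replicate 2, with adjusted p up to 0.068. The next members were Cox6b2 (−0.92 ± 0.25, adjusted p = 0.069), Ndufs3 (0.43 ± 0.18, adjusted p = 0.23) and Ndufa10 (0.29 ± 0.13, adjusted p = 0.27), none past the threshold. Cox6a2 rose at both stages, and its difference was not called (0.39 ± 0.19, adjusted p = 0.3).

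From E15.5 to E17.5 the control epidermis changed in 2 members (2.41%; 10.9% of all genes, 3.15% risen and 7.7% fallen): Sdhb rose from 91.9 and 98.9 to 121 and 134 CPM (0.42 ± 0.10, adjusted p = 0.021) and Ndufa4l2 fell from 262 and 367 to 204 and 173 CPM (−0.74 ± 0.15, adjusted p = 0.0092). The median member was at 0.11 and the median gene at 0.00. With library totals alone 16 members rose and 1 fell, with the median gene at 0.19 and the median member at 0.31. The 10.9% holds for the main fit, and the share of all genes called under that scaling is not given here. No member rose without either E15.5 control replicate or E17.5 control replicate 2, and 3 rose without E17.5 control replicate 1. In the knockout epidermis 7 members rose and 1 fell over the same interval (9.64%; 13.1% of all genes, 6.19% risen and 6.91% fallen), and the median member was at 0.21. Risen were Cox8b (0.98 ± 0.14, adjusted p = 0.00078), Cox6a2 (0.54 ± 0.13, adjusted p = 0.019), Ndufb7 (0.49 ± 0.12, adjusted p = 0.02), Ndufb9, Sdha, Uqcrc1 and Ndufa10, and Cox6b2 fell (−0.71 ± 0.18, adjusted p = 0.023). The calls of Ndufa10 (edgeR, adjusted p = 0.047) and Uqcrc1 (0.049) lay close to the threshold and were lost in 12 and 9 of 17 alternatives. Without E15.5 knockout replicate 2 or E17.5 knockout replicate 1 a single member rose, and without either E17.5 control replicate 12 did. The knockout and stage comparisons share libraries.

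How far a count belongs to its gene varied among members. Subunit genes have many processed pseudogenes, and some overlap other genes. Of the 85 members, 21 had at least 20% of their 50-base windows, on either strand, in transcripts of other GENCODE M21 genes, and 37 had none. Among the 21, Cox5b, Ndufb6, Ndufb9 and Uqcrc2 shared windows with no pseudogene. Ndufb6 and Uqcrc2 share 257 and 504 exon bases with genes on the opposite strand. The median level was 38.2 RPKM for these 21 and 99.0 RPKM for the other 64. For 10 members the share was at least 40%, with a median level of 19.5 RPKM and a range of 5.58 to 193 RPKM. Atp5l, a membrane subunit of the ATP synthase, shared 84.8% of its windows with 14 genes, 12 of them pseudogenes, and stood at 21.4 RPKM. The row for the pseudogene Ndufs5-ps held 31.8 to 41.5 CPM, and that for Ndufs5 itself 1.48 to 4.11 CPM. Read length and the handling of reads with several matches were not stated, so the levels of such members are uncertain. Among the 62 tested members under 20%, 3 rose and 6 fell at E15.5, where 45.5% of all genes were called, and 5 rose and 4 fell at E17.5, where 53.5% were.

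**Figure D4:**
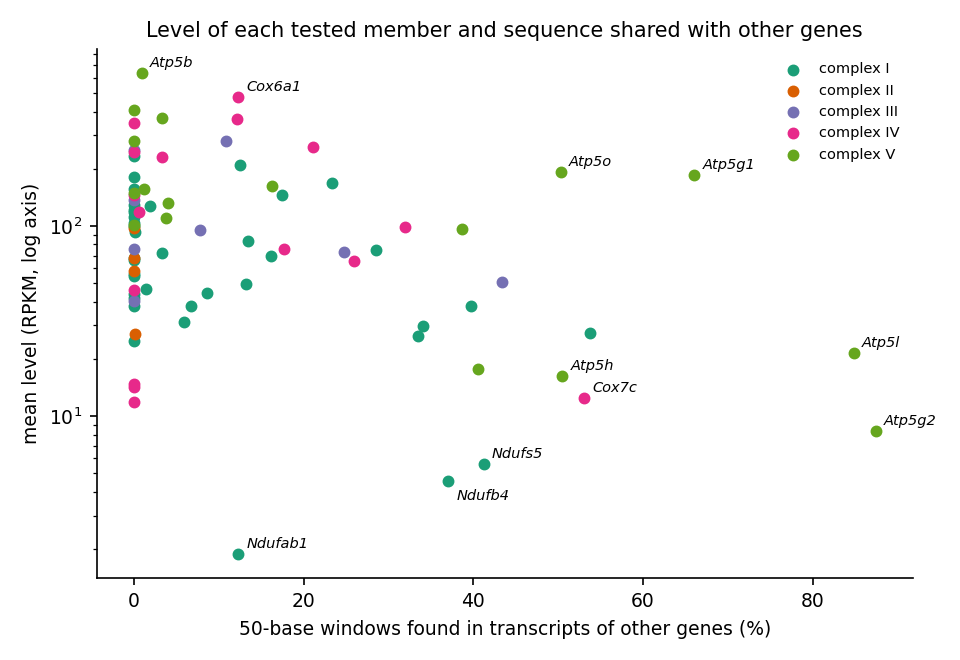
Mean level of each tested member (RPKM over 8 libraries, log axis) against the percentage of its 50-base windows that occur in transcripts of other genes, coloured by complex. Atp5b (636 RPKM) and Cox6a1 (475 RPKM) share few windows, while Atp5g2 (87.4% shared) and Atp5l (84.8%) stand at 8.35 and 21.4 RPKM.

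Genes around the machinery were read from 7 lists, beside 45.5% of all genes called at E15.5 and 53.5% at E17.5. Of 15 assembly factors of complex I, 0 rose and 3 fell at E15.5 (20%) and 0 rose and 4 fell at E17.5 (26.7%), led by Acad9, an acyl-CoA dehydrogenase relative needed to assemble the complex. Acad9 was at 133 and 158 CPM in control and 30.4 and 26.5 CPM in knockout libraries at E15.5, and at 113 and 112 against 29.4 and 28.1 CPM at E17.5 (−2.36 ± 0.12, adjusted p = 5.5e-08; −1.97 ± 0.12, adjusted p = 1.2e-07). Its groups were far apart at both stages. Ecsit fell at both stages (−0.38 and −0.47), Tmem186 at E15.5 (−0.35) and Ndufaf4 at E17.5 (−0.46). Of 33 assembly factors of complexes II to V, 0 rose and 4 fell (12.1%), then 2 rose and 7 fell (27.3%). Among them Uqcc2 (complex III; −0.76 and −0.39), Atpaf2 (complex V; −0.57 and −0.35) and Pet100 (complex IV; −0.87 and −0.69) fell at both stages, and Cox20 fell at E17.5 (−0.59).

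Of 11 tested carriers and subunits outside the naming rule, 1 rose and 5 fell at E15.5 (54.5%) and 1 rose and 4 fell at E17.5 (45.5%). Higd1a, a small inner membrane protein induced by low oxygen, went from 117 and 136 to 25 and 30.5 CPM (−2.19 ± 0.13, adjusted p = 1.6e-07) and from 82.0 and 86.3 to 27.9 and 26.4 CPM (−1.63 ± 0.12, adjusted p = 9.2e-07). The ADP/ATP carriers diverged: Slc25a5, the form of growing cells, fell (−0.65 ± 0.09, adjusted p = 0.00013; −0.58 ± 0.09, adjusted p = 0.00022), and Slc25a4, the form of heart and muscle, rose (0.50 ± 0.12, adjusted p = 0.0052; 0.75 ± 0.12, adjusted p = 0.00029). Etfa, which feeds electrons from fatty acid oxidation, fell at both stages (−0.77 ± 0.11, adjusted p = 0.00016; −0.28 ± 0.11, adjusted p = 0.048). Of 13 genes of coenzyme Q synthesis 1 rose and 1 fell (15.4%), then 3 rose and 3 fell (46.2%), with Coq8a up (0.50 and 1.22), Coq4 down (−0.68 and −0.79) and Coq9 up at E17.5 (0.61).

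The fuel pathways were read the same way. Of 20 genes of the citric acid cycle and pyruvate dehydrogenase, 2 rose and 2 fell at E15.5 (20%) and 6 rose and 0 fell at E17.5 (30%, by edgeR), with medians of 0.03 and 0.14. Idh2, mitochondrial isocitrate dehydrogenase, rose at both stages (0.47 and 0.67), as did Dlst (0.36 and 0.48), and Cs, citrate synthase, and Ogdh fell at E15.5 (−0.53 and −0.47). Of 24 glycolytic genes 4 rose and 11 fell at E15.5 (62.5%; 45.5% of all genes) and 11 rose and 5 fell at E17.5 (66.7%; 53.5% of all genes). The glucose carriers moved apart, with Slc2a1 falling from 168 and 227 to 82.1 and 90.2 CPM at E15.5 (−1.20 ± 0.13, adjusted p = 2.6e-05) and Slc2a3 rising from 6.26 and 11.9 to 33.2 and 53.2 CPM (2.25 ± 0.30, adjusted p = 9.1e-05). At E17.5 their values were −1.11 and 2.69. Slc16a3, a lactate exporter, rose at both stages (1.06 and 1.19), and Pfkm, the muscle form of phosphofructokinase, rose at E15.5 (0.63 ± 0.12, adjusted p = 0.0014) and E17.5 (1.19 ± 0.12, adjusted p = 1.1e-05).

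Of 26 regulators of mitochondrial genes, 1 rose and 7 fell at E15.5 (30.8%) and 4 rose and 5 fell at E17.5 (34.6%). Epas1, which encodes HIF2-alpha, was at 179 and 194 against 79.6 and 89.8 CPM at E15.5 (−1.14 ± 0.13, adjusted p = 3.2e-05) and 133 and 100.2 against 89.7 and 91.6 CPM at E17.5 (−0.36 ± 0.13, adjusted p = 0.034). Egln3, a HIF prolyl hydroxylase and HIF target, fell at both stages (−0.99 and −0.55). Polrmt, the mitochondrial RNA polymerase, fell at E15.5 (−0.51), and Twnk, the mitochondrial DNA helicase, at E17.5 (−0.65). Esrrg, a nuclear receptor of oxidative muscle, rose at both stages from low levels (1.28 ± 0.30 and 1.87 ± 0.30), and Esrrb rose at E17.5 (1.76 ± 0.37).

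**Figure D5:**
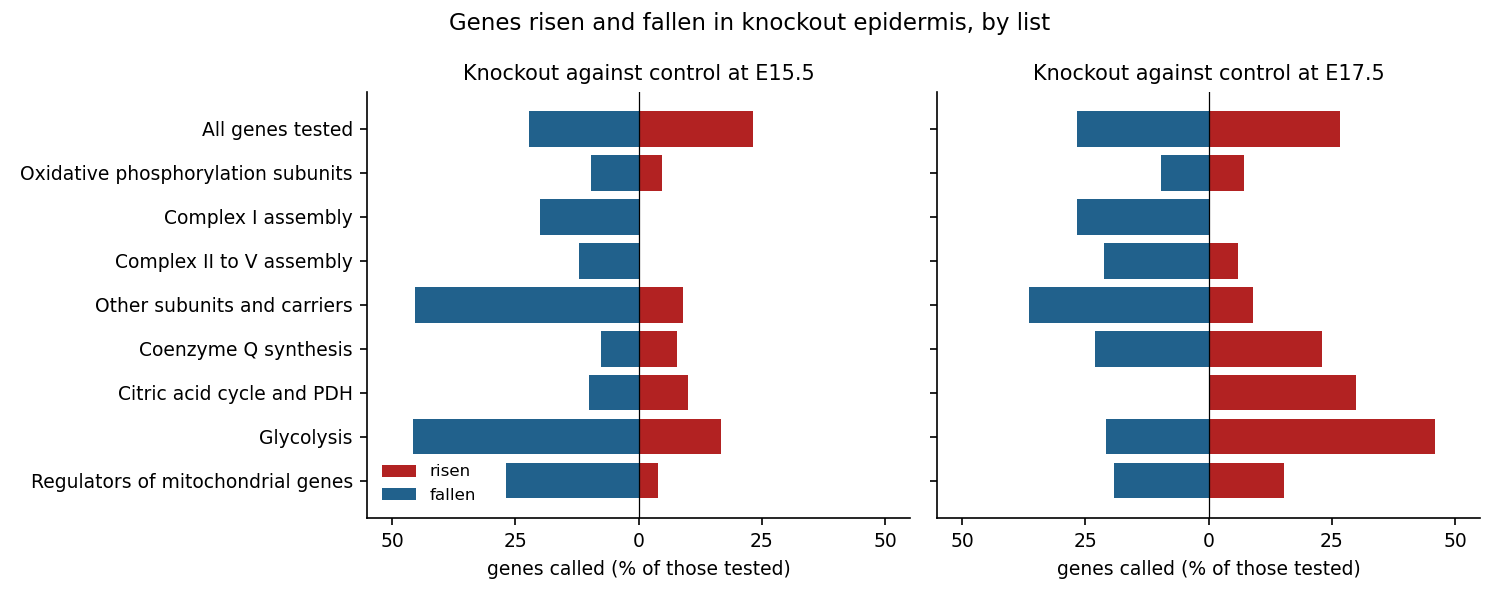
Share of tested genes that rose (right, red) and fell (left, blue) in knockout epidermis at E15.5 and E17.5, for all genes tested, the oxidative phosphorylation subunits and 7 lists of related genes. The subunits reach 14.5% called at E15.5 and 16.9% at E17.5, and all genes 45.5% and 53.5%.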

How the data were processed

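Total RNA from the epidermis of 8 libraries (2 per group) was sequenced. Per the labels and design text, alignment was to mm10 with TopHat version 2 and counting was done with HOMER; strand setting, read length and the handling of multiple matches were not stated. The values deposited by the authors are raw read counts per RefSeq transcript, with no normalization. Of 30521 transcripts, 29908 were named by the RefSeq table of GRCm38.p6 and 182 by GENCODE M21. The other 431 (2.08% of counts) were left out. Each gene was represented by its transcript with the largest total (7 members had several).

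Counts were tested with edgeR 4.0.16 in R 4.3.3 (TMM scaling, filterByExpr, quasi-likelihood F test, 1 mean per group over all 8 libraries, biological coefficient of variation 0.118), with Benjamini-Hochberg adjustment over 16342 genes and a threshold of 0.05. "Called", "rose" and "fell" mean past it. Fold changes are log2; the standard error (SE) was taken from the F statistic as |log2 fold change| over its root. Levels are CPM on TMM-scaled totals or RPKM with GENCODE transcript lengths. The analysis was tested on simulated data. The labels do not say whether replicates came from separate embryos, so the p-values cover only the spread among these libraries, which may be technical; an exact permutation test of 2 against 2 cannot go below p = 0.333. Same-numbered libraries did not deviate together (correlations from −0.0627 to 0.0315), so no block was used.

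Members and the 7 pathway and 8 marker lists were chosen with earlier results of these data known. Values in every library (or their range) were given by rule for the 5 risen and 5 fallen members with the largest change per knockout comparison (past the test, mean log2 CPM of at least 1, no overlap), tissue isoforms and partners, complex II, the c ring, the most abundant member per complex and the members leading the stage comparisons; for each list, up to 3 called genes with the smallest adjusted p. Ndufs3, Ndufa10, Ndufb2, Ndufa7, Ndufb5, Uqcrc1, Atp5a1, Shmt2, Atp5l, Ndufs5 and Ndufs5-ps were added after their values were seen. Alternatives were DESeq2 1.42.0, other scalings and filters, transcript sums, length offsets, a replicate block, single libraries left out and, added after seeing the data, members with few shared windows. Single results for a few genes are not reported here.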

Additional observations from a re-analysis of the deposited data

Results flagged for a closer look

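Ndufa4l2 stood out because its response to the knockout differed between the stages by a test of the difference itself. It fell by 2.06 (log2) at E15.5 and by 0.93 at E17.5, a difference of 1.13 ± 0.22 (SE; edgeR, adjusted p = 0.013), with mean levels of 314 against 75.5 CPM and then 188 against 98.7 CPM. The control level itself fell between the stages, and the knockout levels of the stages lay closer together. The call was lost without E15.5 knockout replicate 2, E17.5 control replicate 2 or E17.5 knockout replicate 1 (0.86 to 1.35 over all alternatives).

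Cox8b stood out by the same test. It rose by 1.30 at E17.5 and had a value of 0.23 at E15.5, a difference of 1.07 ± 0.21 (adjusted p = 0.014), with mean levels of 12.2 against 14.3 CPM and then 11.5 against 28.3 CPM. It no longer passed without E15.5 control replicate 2, E15.5 knockout replicate 2 or E17.5 knockout replicate 1 (0.85 to 1.2 over all alternatives). All 8 skeletal muscle markers had higher values in knockout epidermis at both stages, with 6 called at E15.5 and 8 at E17.5. For 2 of the 8 a larger rise at E17.5 was called. The part of muscle RNA in the Cox8b difference was not tested.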

How the results depend on the processing

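No result changed direction with a call in any alternative, and of the recomputed values of named members 2390 kept their side of the threshold, 83 lost a call and 47 gained one. With library totals alone, 3 members rose and 26 fell at E17.5 (median −0.27; complex I −0.24, II −0.09, IV −0.28, V −0.29), the difference between stages had 1 fallen member (median −0.13), and 16 rose from E15.5 to E17.5 in control epidermis (median 0.31); the E17.5 control libraries have TMM factors of 1.094 and 1.122, the others 0.938 to 1.007. Length offsets gave 5 fallen at E17.5, 2 fallen in the control stage comparison and 4 risen in the knockout stage comparison, which had 12 with DESeq2 and 11 with the groups compared alone. Members with few shared windows had 4 fallen at E17.5, and without a filter or with transcript sums 1 member (Cox6b2) fell in the difference. Counts in these alternatives and those below stand without the share of all genes called in the same fit. They therefore do not set the module apart from other genes. The cause was not tested.

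Leaving out 1 library moved the counts, with the range for each: at E15.5, 2 to 3 risen and 3 (without control replicate 1) to 13 (without knockout replicate 1) fallen, 5 without knockout replicate 2; at E17.5, 3 (without knockout replicate 1) to 9 risen and 4 (without knockout replicate 2) to 9 fallen, 5 without control replicate 2; for the difference, 0 to 2 risen (0 without E15.5 knockout replicate 2 or E17.5 knockout replicate 1); in the control stage comparison, 0 to 3 risen and 0 to 1 fallen; in the knockout stage comparison, 1 (without E15.5 knockout replicate 2 or E17.5 knockout replicate 1) to 12 (without either E17.5 control replicate) risen and 0 to 1 fallen. The E15.5 median of complex II ranged from 0.09 (without knockout replicate 1) to 0.17.

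With the replicate number as a block, 4 rose and 12 fell at E15.5, 7 and 9 at E17.5, and 2 and 0 for the difference. The same block gave 1 and 1 in the control and 5 and 1 in the knockout stage comparison. Same-numbered libraries did not deviate together, and the titles give no pairing beyond the number. Depth limits scarce members: Ndufb4, Cox7c and Cox7a1 had as few as 56, 81 and 93 counts in a library.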
